A study of Mus musculus with 4 samples.

Results

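The genes of secretory immunoglobulin A were followed in mouse colon: Pigr, the epithelial transporter of the antibody, and 6 genes of the cells that make it, Jchain, Mzb1, Cd79a, Cd79b, Tnfrsf17 and Pou2af1. Members were chosen by gene symbol in the platform annotation, with older names brought up to date, so that Jchain was found as Igj and Mzb1 as 2010001M09Rik. All 7 genes were found, each with 1 probe, among 16637 named genes on arrays of 29922 probes. The mice were female, of a strain written BALB/c for the mock array and BALC/c for the other arrays, and no age was given. In all, 24 mice formed 4 groups of 6. Mock mice received the vehicle alone, 0.1 ml of 50% ethanol, which every group received. TNBS mice received 250 mg/kg of trinitrobenzene sulfonic acid, a hapten that provokes colitis. For the ginger group, ginger extract was mixed into the TNBS dose, and for the zingerone group, zingerone, a phenolic ketone of ginger. Colon was taken at day 7, and 1 array was hybridised for each group. The amount of extract or zingerone behind each array, and the number of mice whose RNA it held, are not given in the labels. With 1 array a group, no difference has a replicate check, an error or a p-value. The number of arrays limits the precision.

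Plasma cells in the connective tissue of the gut wall secrete IgA as a dimer held together by the joining chain, the product of Jchain. The polymeric immunoglobulin receptor, the product of Pigr, binds that chain at the base of epithelial cells, carries the antibody across and releases it into the lumen with a part of the receptor attached. The transporter and its cargo are thus made by different cells, and both are part of the barrier between colon and microbes. Mzb1 encodes a chaperone of the endoplasmic reticulum that helps to assemble immunoglobulin in B cells and plasma cells. Cd79a and Cd79b encode the signalling chains of the B cell antigen receptor. Tnfrsf17 encodes BCMA, a receptor on plasma cells for the survival factors APRIL and BAFF, and Pou2af1 encodes a coactivator of octamer-binding transcription factors in B cells.

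The start regions of Pigr and Jchain are shown because the transporter and its ligand had the 2 deepest decreases among these genes on the TNBS array. The sequences are from RefSeq (GRCm38.p6), each from 250 bases before to 50 bases after the annotated gene start, written 5′ to 3′ on the strand of the gene. A matched motif is in capitals. Pigr lies on the plus strand (chr1:130826434-130826733) and Jchain on the minus strand (chr5:88527848-88528147).
Pigr: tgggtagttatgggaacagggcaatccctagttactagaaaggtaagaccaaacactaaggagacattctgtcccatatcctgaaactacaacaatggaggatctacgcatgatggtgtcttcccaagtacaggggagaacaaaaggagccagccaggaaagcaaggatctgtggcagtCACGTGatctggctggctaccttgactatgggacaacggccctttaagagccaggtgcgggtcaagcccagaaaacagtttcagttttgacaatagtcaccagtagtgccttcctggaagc
Jchain: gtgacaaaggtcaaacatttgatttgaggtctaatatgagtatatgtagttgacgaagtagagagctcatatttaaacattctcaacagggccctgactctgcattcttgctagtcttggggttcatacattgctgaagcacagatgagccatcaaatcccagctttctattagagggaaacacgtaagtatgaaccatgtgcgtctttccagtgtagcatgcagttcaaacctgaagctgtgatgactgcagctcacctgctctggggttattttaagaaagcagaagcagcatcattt
Both strands were searched for 2 motifs that do not overlap each other: the octamer ATGCAAAT and the E-box CACGTG. The Pigr region held 1 E-box, at positions -71 to -66 from the start, a motif present in 7.15% of 32851 start regions of the same length. The octamer was not matched in the Pigr region, and neither motif was matched in that of Jchain. The octamer was present in 1.74% of all regions. A match describes the letters only, and no binding was measured. Usf1 and Usf2, named here after their values were seen, encode E-box-binding factors, and they differed between TNBS and mock by -0.04 and 0.18 on the log2 scale (means of 2 and 3 probes).

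Values are deposited intensities, in arbitrary units on a linear scale. A gene is called measured where its intensity was at or above the named probes' median (269 to 272, depending on the array) on at least 1 array, which held for 10056 genes. A dim gene can thus count as measured through the array where it is high, so counts of lower or higher genes are descriptions. It is called lower or higher where 2 arrays differed at least 2-fold, that is by 1 on the log2 scale. Of the 7 genes, 6 were measured: Pigr, Jchain, Cd79a and Cd79b reached the median on all 4 arrays, Mzb1 on all but TNBS, Pou2af1 on all but mock, and Tnfrsf17 on none. The colon epithelium genes Guca2a, Slc26a3 and Car4 were bright on the mock array, at 20660, 2377 and 7778.5, so the labelled tissue is borne out there. Of 15 epithelial markers, 15 were measured.

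Pigr was the gene of the group that differed most. Its intensity was 2977 in mock, 302 in TNBS, 813.5 with ginger and 792.5 with zingerone. The mock array was high, TNBS was low and close to the median of the named probes, and both treated arrays lay between them and near each other. Pigr was 9.85-fold lower on TNBS than on mock (log2 difference -3.30), rank 8 from the lowest of 10056 measured genes. With each array's 5th percentile subtracted as background the difference was -3.99, so the fold depends on how background is treated at the low TNBS intensity. Against TNBS it was 2.69-fold higher on ginger and 2.62-fold higher on zingerone, ranks 42 and 135 from the highest. Both treated arrays stayed below mock, by 3.66-fold on ginger and 3.76-fold on zingerone, ranks 27 and 22 from the lowest. On the log2 scale, ginger closed 43.3% of the gap between TNBS and mock and zingerone 42.1%. In linear units the treated arrays held 27.3% and 26.6% of the mock intensity. Ginger and zingerone differed from each other 1.03-fold for Pigr. In whole tissue, fewer cells of a type and less RNA per cell cannot be told apart, here and for every gene below.

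**Figure D1:**
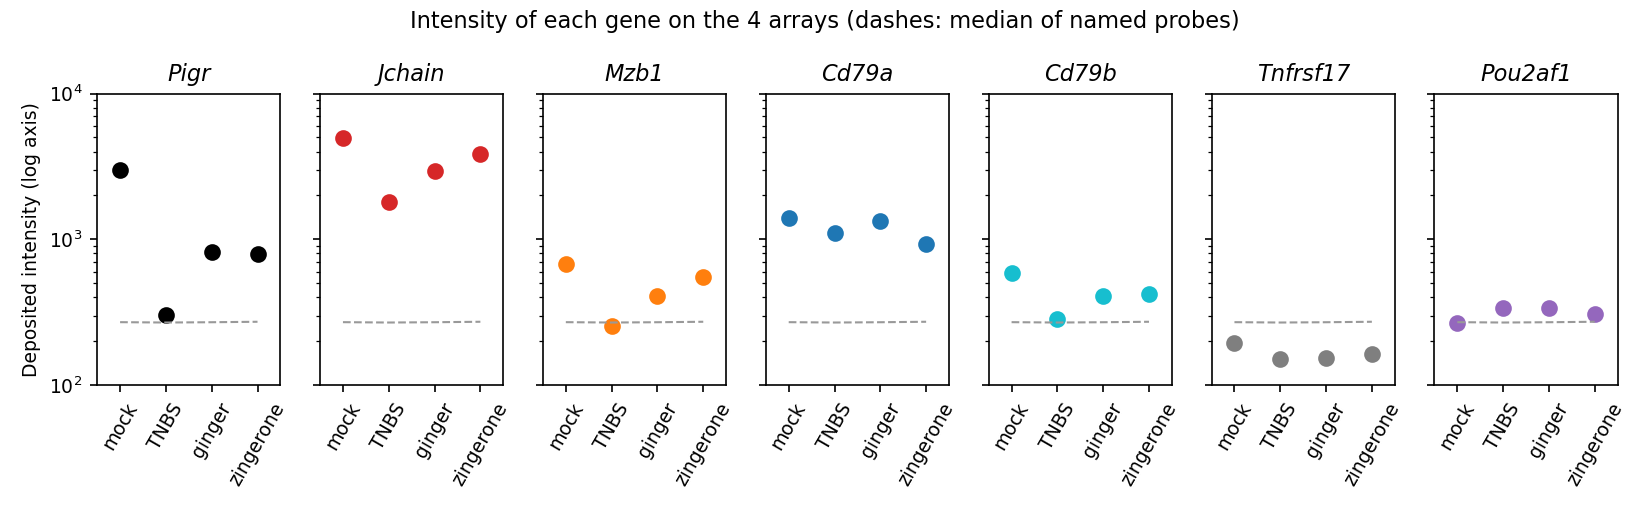
Deposited intensity (log axis) of the 7 genes on the mock, TNBS, ginger and zingerone arrays, 1 point per array, with dashes at the median of the named probes. Pigr spans 302 to 2977, while Tnfrsf17 lies under the dashes on all 4 arrays and Pou2af1 close to them.

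Jchain and Mzb1, the cargo's joining chain and its chaperone, followed each other. Jchain had an intensity of 4924 in mock, 1799 in TNBS, 2947.5 with ginger and 3834 with zingerone. Mzb1 was at 674 in mock, 256 in TNBS, 412 with ginger and 551 with zingerone. Both were highest on mock and lowest on TNBS, with zingerone above ginger. Jchain was 2.74-fold lower on TNBS than on mock and Mzb1 2.63-fold lower. On ginger they were 1.64-fold and 1.61-fold above TNBS, short of 2-fold (Mzb1 passed it, at 1.12 on the log2 scale, with background subtracted), and on zingerone 2.13-fold and 2.15-fold above it. Ginger closed 49.0% of the Jchain gap on the log2 scale and 49.2% of the Mzb1 gap, while zingerone closed 75.1% and 79.2%. Jchain on zingerone held 77.9% of its mock intensity and Mzb1 81.7%. On ginger these were 59.9% and 61.1%. The Mzb1 value on TNBS lay below the median of the named probes, where an intensity includes an unknown share of background.

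Cd79a and Cd79b encode the chains that signal together in the antigen receptor, and they differed in pattern. Cd79b was at 587 in mock, 286 in TNBS, 410.5 with ginger and 425 with zingerone, the same order as Jchain. It was 2.05-fold lower on TNBS than on mock, just past the 2-fold limit, and 1.44-fold and 1.49-fold above TNBS on ginger and zingerone. Cd79a was at 1398 in mock, 1105.5 in TNBS, 1331.5 with ginger and 924 with zingerone. Its lowest array was zingerone, not TNBS. Cd79a was 1.26-fold below mock on TNBS, 1.05-fold on ginger and 1.51-fold on zingerone, none of them 2-fold. Between ginger and zingerone it differed 1.44-fold, rank 223 from the highest of 10056 genes.

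The dim pair gave little range. Tnfrsf17 was at 195.5 in mock, 152 in TNBS, 154 with ginger and 164 with zingerone, under the median of the named probes throughout. Its highest and lowest arrays differed 1.29-fold. Pou2af1 was at 266.5 in mock, 339.5 in TNBS, 338 with ginger and 308 with zingerone. It was the only gene of the 7 that was lowest on the mock array, and TNBS stood 1.27-fold above it. At such low intensities a fold is understated, and the size of a change in either gene is not known from these arrays.

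Against mock, 4 of the 6 measured genes were lower on TNBS, namely Pigr, Jchain, Mzb1 and Cd79b, and none was higher. Of all measured genes, 4.52% were lower in that comparison. On ginger against TNBS, 1 of 6 was higher, Pigr, where the share of all genes was 1.35%. On zingerone against TNBS, 3 of 6 were higher, Pigr, Jchain and Mzb1, where the share was 4.57%. None was lower than TNBS on either array, where 2.48% of all genes were lower on ginger and 2.96% on zingerone. The ginger and zingerone comparisons share the TNBS array. Against mock, Pigr was the gene still lower on ginger (1 of 6, with 1.08% of all genes) and on zingerone (1 of 6, with 1.05%). None of the 6 differed 2-fold between ginger and zingerone, as 1.1% of all genes did in either direction. Mzb1 and Pou2af1 count as measured through the arrays where they are high, so these counts are descriptions.

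Set against the transporter, the other 6 genes, of plasma cells and B cells, differed less between TNBS and mock. The 6 genes other than Pigr had a median TNBS-minus-mock difference of -0.70 on the log2 scale, with a range from -1.45 to 0.35, and 5 of 6 lay below mock. Over the 5 measured ones the median was -1.04, and over all measured genes -0.04. The median of the 5 is the value of Cd79b, a B cell receptor chain. Jchain and Mzb1 lay nearer to Pigr (-3.30), at -1.45 and -1.40. The difference for Pigr minus the median of the 5 measured genes was -2.26, and minus that of all 6, dim Tnfrsf17 included, -2.60. Against TNBS the 5 measured genes had a median difference of 0.52 on ginger and 0.57 on zingerone, and Pigr lay 0.91 and 0.82 above these. These medians are again the Cd79b values. Jchain differed by 0.71 and 1.09, and Mzb1 by 0.69 and 1.11. Over all 6 the medians were 0.39 and 0.34, with Pigr 1.03 and 1.05 above. Against mock the 5 had a median of -0.52 on ginger and -0.36 on zingerone, and the difference for Pigr minus that median was -1.36 and -1.55. Over all 6 the medians were -0.43 and -0.33 and the differences -1.44 and -1.58. On the log2 scale the transporter therefore differed more than the other genes in both directions, and it ended further from mock. Both directions share the 1 TNBS array, so a low Pigr value there enlarges both. As a share of its own gap, Pigr moved back less (43.3% on ginger and 42.1% on zingerone) than Jchain, Mzb1 and Cd79b. Cd79b closed 50.3% and 55.1%. Over 7 alternative processing settings, the share on ginger ran from 43.3% to 48.7% for Pigr and from 49.0% to 49.6% for Jchain. For Mzb1 it ran from 49.2% to 54.6% and for Cd79b from 50.3% to 54.2%. The contrast between Pigr and Jchain on ginger therefore depends on the processing and can be small.

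**Figure D2:**
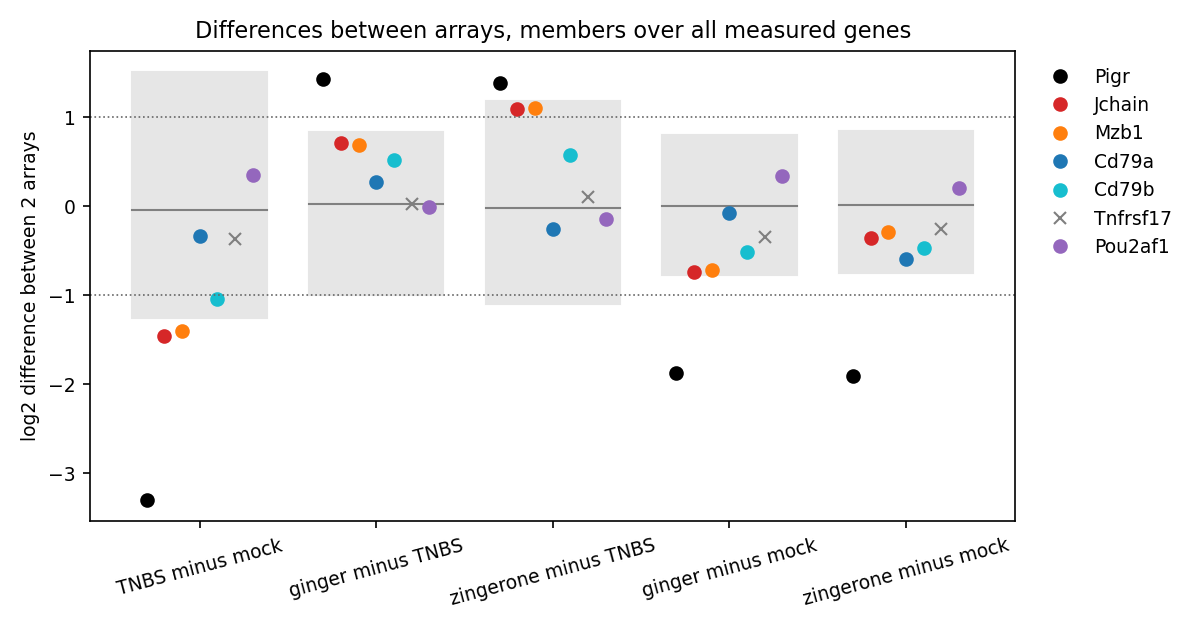
Log2 differences between pairs of arrays for the 7 genes (points, with a cross for Tnfrsf17, which was not measured). Grey bars span the central 95% of the 10056 measured genes with their median as a line, and dotted lines mark 2-fold. Pigr lies outside the grey bar in all 5 comparisons, and Jchain and Mzb1 in TNBS minus mock.

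No other listed and measured plasma cell gene was 2-fold lower on TNBS, as Jchain and Mzb1 were. Of 18 listed genes of plasma cell identity and secretion, 17 were on the arrays under a name and 12 were measured. None of the 12 was 2-fold apart in any of the 6 comparisons. Of all measured genes, 4.52% were lower on TNBS than on mock, so none of 12 is near that share. The median of the 12 for TNBS minus mock was -0.06, beside -0.04 for all measured genes. With the brightest probe of each gene the list's median was 0.08. Xbp1, the transcription factor of secretory cells, was at 5758 in mock, 4918.5 in TNBS, 5189.5 with ginger and 6172.5 with zingerone. Epithelial secretory cells also express it. Sdc1, the plasma cell surface marker CD138, which colon epithelium also carries, differed by -0.15 between TNBS and mock on both of its probes. The lowest difference was that of Sec11c, a subunit of the signal peptidase, at -0.97 (7451 in mock, 3803 in TNBS, 5183.5 with ginger and 5610 with zingerone). Selenos, of endoplasmic reticulum quality control, differed by -0.88, and Ell2, an elongation factor used in immunoglobulin secretion, by 0.77. The transcription factors Prdm1 and Irf4 and the receptor Tnfrsf13b (TACI) were not measured. The list's median thus rests on the other genes, some of which epithelium also expresses, and it does not follow plasma cells alone. Irf4 read 183 in mock, 122 in TNBS, 139 with ginger and 172 with zingerone, the same order as Jchain but under the median of the named probes. No probe carried the symbol of an immunoglobulin heavy or light chain gene, so the antibody transcripts were not analysed here.

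B cell genes likewise had no measured member 2-fold apart, as a mean of its probes, between any 2 arrays. Of 22 listed, 21 were named and 13 measured, with 8 of 13 below mock on TNBS and a median of -0.12. Of all measured genes, 4.52% were 2-fold lower on TNBS than on mock, so none of 13 is near that share. Fcmr, the IgM Fc receptor of B cells, was at 768.5 in mock, 468 in TNBS, 667 with ginger and 459 with zingerone. Vpreb3, a B lineage gene, was at 825 in mock, 566 in TNBS, 725 with ginger and 536 with zingerone. Pax5, the B cell identity factor, was at 422 in mock, 388.5 in TNBS, 449 with ginger and 346 with zingerone. These 3 genes and Cd79a were lowest on zingerone. Fcer2a, the low-affinity IgE receptor, was not, at 419 in mock, 288 in TNBS, 292 with ginger and 332 with zingerone, the mean of 2 probes that differed in sign for TNBS minus mock, at -1.19 and 0.11. Nor was Ms4a1, which encodes CD20 and was not measured, at 208 in mock, 153 in TNBS, 159.5 with ginger and 192 with zingerone. Over the 13 measured genes, 8 lay higher on ginger than on zingerone and 5 lower. Their median for ginger minus zingerone was 0.02, beside 0.03 for all measured genes, and for zingerone minus TNBS it was -0.04.

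The zingerone array was also low for some T cell genes. Cd3g was at 928 in mock, 697 in TNBS, 937.5 with ginger and 531 with zingerone, and Cd3e at 625, 670, 635 and 469.5 in the same order. Cd3d went the other way, at 299 on zingerone and 191 on ginger. Of 7 measured T cell genes, 1 was 2-fold higher on TNBS than on mock, Thy1, which stromal cells also express. The median of the 7 for zingerone minus mock was -0.25, and for ginger minus mock 0.02. The B cell medians were -0.21 and -0.11, none of them near 2-fold. Summed over 10 named T cell genes, intensity was 3932 in mock, 4236 in TNBS, 4125 with ginger and 3572 with zingerone. Over 21 B cell genes it was 10572, 9367, 9963 and 9373. The part of lymphocytes in the Cd79a pattern was not tested.

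**Figure D3:**
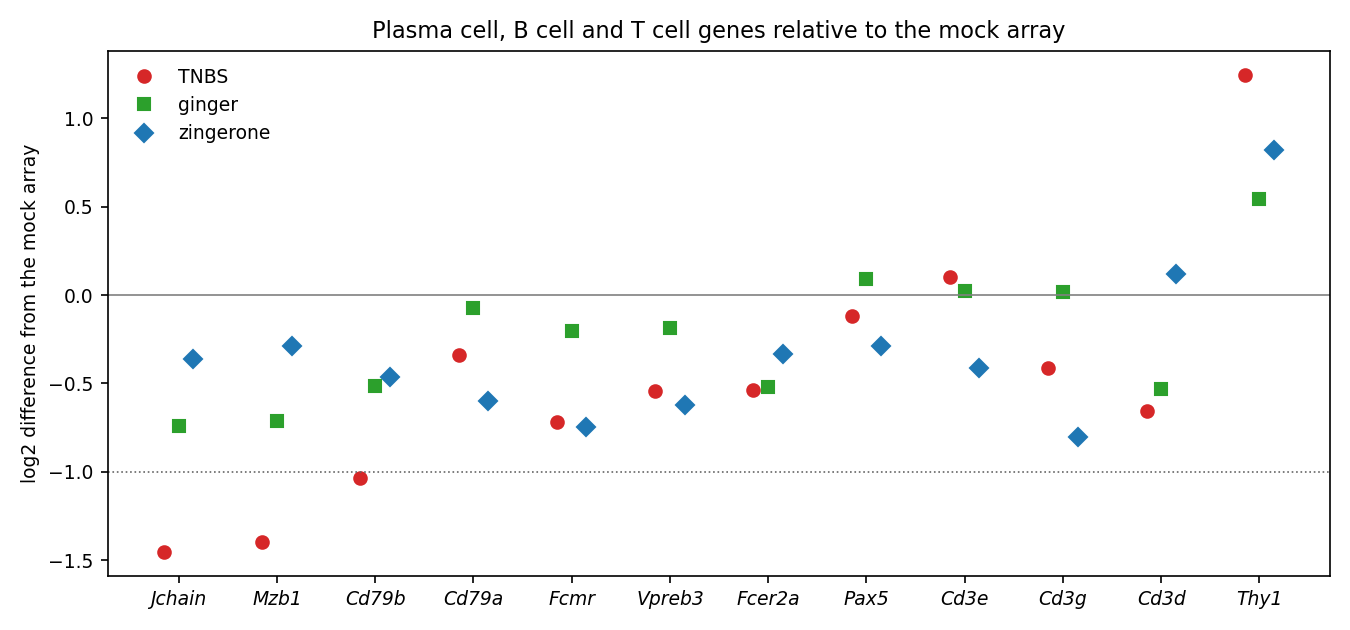
Log2 difference from the mock array for Jchain, Mzb1, Cd79b and Cd79a and for the named measured B cell and T cell genes, on the TNBS (circles), ginger (squares) and zingerone (diamonds) arrays. Jchain, Mzb1 and Cd79b are lowest on TNBS, while Cd79a, Fcmr, Vpreb3 and Pax5 are lowest on zingerone and Fcer2a is lowest on TNBS.

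Genes that direct B cells to IgA and to the gut gave few differences, and those were in inflammatory members. Of 30 listed, 27 were named and 20 measured. On TNBS 3 of 20 were higher than on mock and none lower, where 5.08% of all genes were higher, and the median was 0.16. Il6, a cytokine that drives plasma cell differentiation among much else, was at 96.1 in mock, 755 in TNBS, 212 with ginger and 183 with zingerone. Cxcl13, the chemokine that draws B cells into follicles, was at 768.5 in mock, 2412.5 in TNBS, 783 with ginger and 941 with zingerone. It was high on TNBS alone. Vcam1, an adhesion molecule for integrin-bearing leukocytes, passed 2-fold as a mean, but its 2 probes differed from mock by 1.80 and 0.29. Its mean on mock lay under the median of the named probes. Madcam1, the gut addressin to which IgA plasma cell precursors bind, was at 439 in mock, 268 in TNBS, 317.5 with ginger and 360 with zingerone. Its ligand chain Itgb7 ran from 678.5 on mock to 793.5 on zingerone. Tgfb1, the cytokine of the switch to IgA, ran from 345 on mock to 485 on ginger. The mean of 3 Tnfsf13b (BAFF) probes differed by 0.17 between TNBS and mock. The homing receptor Ccr10 was not measured, with 266.5 on mock and 187.5 on TNBS. Tnfsf13 and Ccl28 were not analysed here.

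Genes known to act on Pigr, or on the route of the receptor through the cell, did not show a decrease of its size. Of 20 listed, 19 were named and 16 measured, with 8 below and 8 above mock on TNBS, none 2-fold apart and a median of 0.003. Irf1, a transcription factor through which interferon raises Pigr, was at 2476 in mock, 1376 in TNBS, 1247.5 with ginger and 1107.5 with zingerone. It was low on all 3 TNBS-treated arrays and, unlike Pigr, lower on the treated arrays than on TNBS alone. It was 2-fold lower only on zingerone against mock (-1.16). Rab25, an epithelial GTPase of recycling endosomes, was at 8072 in mock, 4333 in TNBS, 6954 with ginger and 6241.5 with zingerone. The IL-17 receptor chain Il17rc differed by -0.32 between TNBS and mock, the adaptor Traf3ip2 (Act1) by -0.58 and the TNF receptor Tnfrsf1a by 0.64. Il17ra had 2 probes, at 0.78 for the brighter and 0.02 for the dimmer. Rab11a, of the same endosomes as Rab25, differed by 0.56. Fcamr, another receptor for IgA and IgM, was not measured, and ran from 168.5 to 207.

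Epithelial markers moved less than Pigr. Of 15 measured markers 11 lay below mock on TNBS, with a median of -0.50. Cdx2, a transcription factor of intestinal identity, was 2-fold lower (-1.14), Cldn3, a tight junction claudin, differed by -0.98, and the keratin Krt18 was 2-fold higher (1.08). Epcam, on the surface of epithelial cells, was at 23352.5 in mock, 16460 in TNBS, 23979.5 with ginger and 23730 with zingerone. Cdh1 (E-cadherin) differed by -0.24, Vil1 (villin, of the brush border) by -0.84, and the keratins Krt8 and Krt20 by 0.42 and 0.69. Against mock, the list's median was 0.05 on ginger and 0.19 on zingerone, while Pigr was at -1.87 and -1.91. Summed over the 15 markers, intensity was 228819 in mock, 203154 in TNBS, 254913 with ginger and 265248 with zingerone. The summed marker intensity of both treated arrays lay above mock, and the Pigr intensity lay below it. The sums weigh bright genes most. Krt8 was at 36534 in mock, 47587 with ginger and 54949 with zingerone, and Krt18 at 8565, 20561 and 13116. Epcam was near mock on both treated arrays, and Vil1 lay below it (-0.29 and -0.37). Of the 15 markers, 9 lay above mock on ginger and 6 below. On zingerone 11 lay above and 4 below. Among 8 measured colon epithelium genes 3 were lower on TNBS, Car4, Guca2a and Slc26a3, with a median of -0.85. Against mock, that list's median was -0.04 on ginger and 0.10 on zingerone, but single genes differed more. On ginger, Slc26a3 and Car4 stayed 2-fold lower than mock (-1.05 and -2.02). On zingerone, Car4 stayed lower (-1.38) and Car1 was 2-fold higher.

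**Figure D4:**
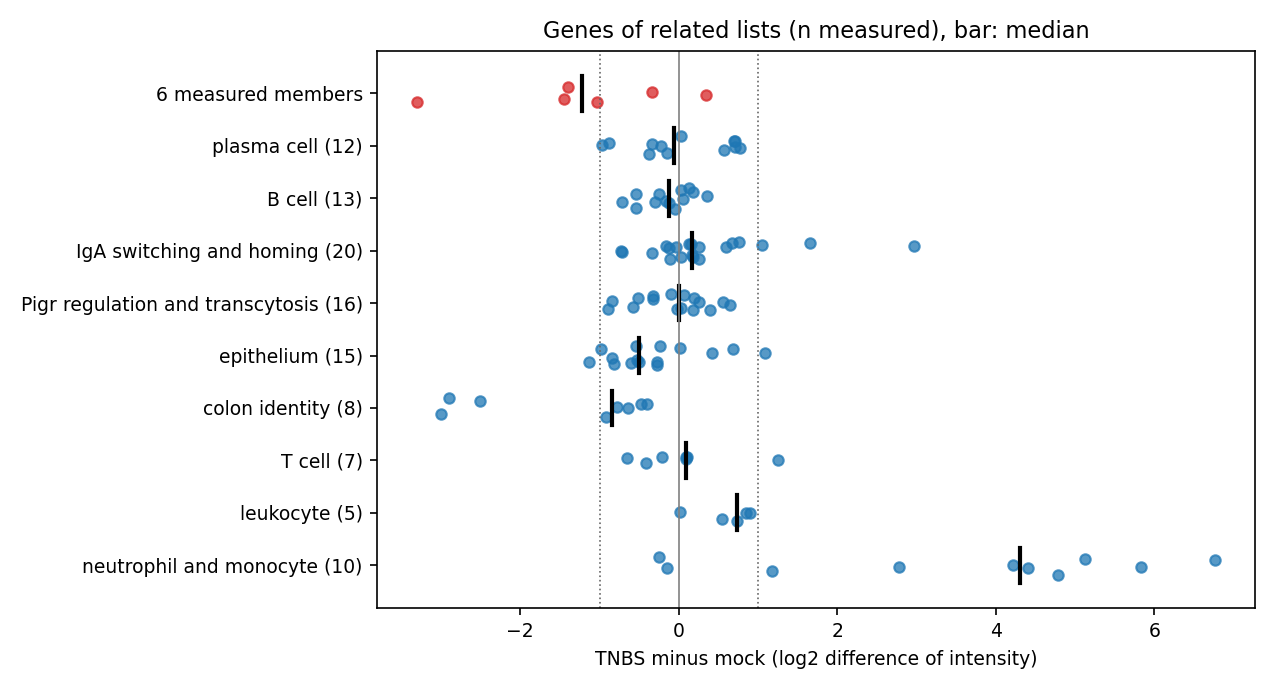
TNBS-minus-mock log2 differences of the measured genes, 1 point per gene, for the 6 measured members and 9 related lists, with the median of each as a bar and dotted lines at 2-fold. The plasma cell, B cell, leukocyte, and Pigr regulation and transcytosis lists lie within 2-fold of mock. Beyond it lie 4 of the 6 members, 3 colon epithelium genes and 8 of 10 neutrophil and monocyte markers. So do Il6, Vcam1, Cxcl13, Thy1, Cdx2 and Krt18.

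Markers of other cells moved between the same arrays. Of 10 measured neutrophil and monocyte markers 8 were higher on TNBS than on mock (median 4.31), and their summed intensity over 11 named genes was 8064 in mock, 210230 in TNBS, 110286 with ginger and 88610 with zingerone. Fat markers had 4 of 6 higher (median 1.33), with sums over 7 genes of 10040, 64592, 16293 and 28915 in the same order. General leukocyte genes had 0 of 5 past 2-fold as means of their probes (median 0.73) and sums over 7 genes of 12521, 16758, 10713 and 9486. The brighter Cd53 and Ptprc probes differed by 1.59 and 1.21 and the dimmer ones by -0.13 each, and the Cd52 probes by 1.21 and 0.48. With the brightest probe of each gene the leukocyte median was 1.21. Smooth muscle genes had 1 of 8 lower, Smtn (median -0.45), and sums of 21824, 17684, 17283 and 10415. No marker had a value of 0, since the lowest intensity in the data was 74.2. All 4 arrays carry nearly the same set of intensities, so a rise in some genes lowers the rank of others. The part of these cells in the Pigr and plasma cell results was not tested.

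Genes with the most similar pattern were found by the distance between log2 intensities over the 4 arrays, after each gene's mean was removed. The 5 closest to Pigr were Car4, a carbonic anhydrase of colonocytes (distance 0.52), Ifi27l2b (0.61), Hao2, a hydroxyacid oxidase (0.70), Stard10, a lipid transfer protein (0.83), and Ramp1, a co-receptor of calcitonin-like peptides (0.84). Car4 was at 7778.5 in mock, 968 in TNBS, 1915 with ginger and 2981 with zingerone. Like Pigr, it stayed more than 2-fold below mock on both treated arrays. Of 10055 measured genes, 115 were closer to Pigr than Jchain was, 303 were closer than Cd79b, and 2289 were closer than Cd79a. Counted from Jchain, at the same distance of 1.40, 8291 genes were closer to it than Pigr was. The counts thus depend on which gene is the centre, and they do not show a pattern shared by Pigr and Jchain.

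Jchain and Mzb1 lay 0.05 apart, and 1 of 10055 measured genes, Zfas1, was closer to Jchain than Mzb1 was. The 5 closest to Jchain were Zfas1, a small nucleolar RNA host gene, Uqcrc1, a subunit of respiratory complex III, Pigt, of the enzyme that attaches GPI anchors, Mrpl54, of the mitochondrial ribosome, and Acot13, an acyl-CoA thioesterase, at distances of 0.05 to 0.10. Those closest to Mzb1 were Zfas1, Chchd6, of the mitochondrial inner membrane, Qdpr, a pteridine reductase, Mrpl54 and Ndufb5, a subunit of respiratory complex I, at 0.06 to 0.09. Uqcrc1 was at 6024 in mock, 2114 in TNBS, 3690 with ginger and 4670 with zingerone. None of these neighbours is a B lineage marker. Cd79b lay 0.40 from Jchain, with 223 genes closer, and Cd79a lay 1.07 away, with 4619 genes closer. With 4 arrays, many genes share a pattern, so the closeness is a description.

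**Figure D5:**
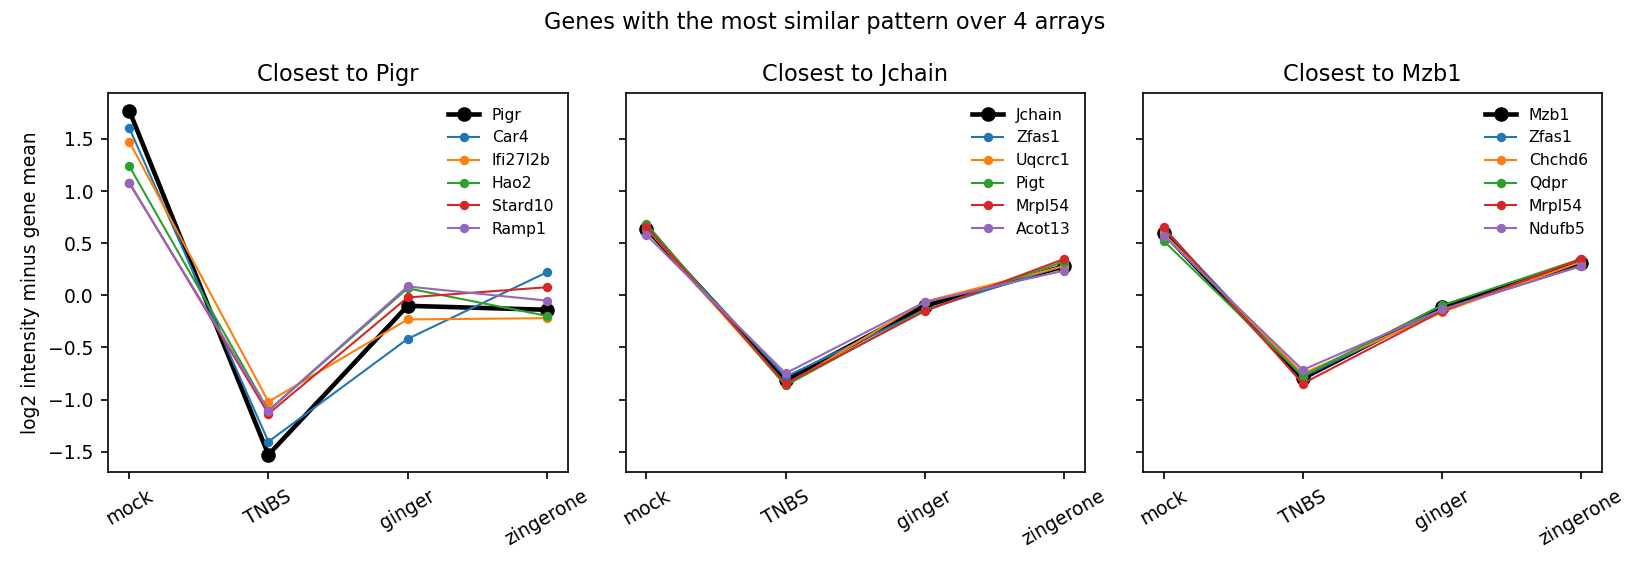
Log2 intensity minus the gene's mean on the 4 arrays for Pigr, Jchain and Mzb1 (black) and for the 5 measured genes closest to each (colours). The lines join arrays in a fixed order and mark no course in time. The Jchain and Mzb1 panels show nearly overlapping lines, lowest on TNBS and higher on zingerone than on ginger, and the Pigr panel shows a deeper minimum on TNBS.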

How the data were processed

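Colon RNA of 4 groups was measured on 1-colour arrays, 1 array a group. Amplification and Cy3 labelling started from 5 µg of total RNA, per the labels' protocols. The deposited values are 1 Cy3 intensity per probe on a linear scale. limma is named in the submitters' processing notes, with neither version nor role. How background and normalization were handled is not given in the sources here. Sorted intensity values of the arrays differed by at most 1.84%, as after quantile normalization. The lowest was 74.2, so background may remain and folds of dim probes are understated.

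Of 29922 probes 21020 had 1 gene symbol, none had several and 8902 had none. Through the RefSeq gene table of GRCm38.p6, 17558 symbols were current, 3410 were updated and 52 were kept. Intensities were taken to log2 without a pseudocount and probes of a gene averaged (Python 3.11.15, pandas 2.3.3). No test was run. The steps were tested on simulated data. The 7 members and 12 lists, 1 of which (immunoglobulin genes) matched no probe, were chosen with earlier results of these data known. Genes named in the text come from a rule: all members, the 3 measured genes of each list with the largest TNBS-minus-mock difference, a set of lineage and pathway genes always given, and the 5 genes closest to Pigr, Jchain and Mzb1 that had no probes of opposite sign. Genes outside this rule are Usf1, Usf2 and Car1, and Car1 was named because it passed 2-fold on zingerone against mock. Alternatives were quantile normalization, equal array medians, no filter or one at the 75th percentile, a floor at the 25th percentile, the brightest probe of each gene, and subtraction of the 5th percentile with a floor of 50.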

Additional observations from a re-analysis of the deposited data

Results flagged for a closer look

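The measured members and the measured list genes named by the rule above were screened. For 4 of them, ginger and zingerone lay on opposite sides of the TNBS array. Their difference also fell outside the central 95% of all measured genes (-0.72 to 0.51 on the log2 scale). That range leaves out a fixed share of genes by definition. The share of all measured genes that meet both conditions was not computed, so the 4 are a description. Cd79a was higher on ginger than on zingerone by 0.53, with 0.27 for ginger minus TNBS and -0.26 for zingerone minus TNBS. Fcmr was higher on ginger by 0.54, with 0.51 and -0.03 against TNBS, so its zingerone value was nearly level with TNBS. Cd3g was higher on ginger by 0.82, with 0.43 and -0.39. Krt18 was higher on ginger by 0.65, with 0.18 and -0.47. Each of the 4 values rests on 1 probe and 1 array a group, and the difference between ginger and zingerone was not tested.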

How the results depend on the processing

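Values were recomputed across 7 alternative settings. They covered Pigr, the median of the other measured members, their difference, the counts of members and the shares of the gap closed. Of these, 264 of 266 stayed within 1.5-fold of the reported ones. The exceptions came with each array's 5th percentile subtracted. The Pigr difference between TNBS and mock was then -3.99, and 2 members, in place of 1, were 2-fold higher on ginger than on TNBS, Pigr and Mzb1 (1.12). No other member crossed the 2-fold limit in any of the 6 comparisons and 7 settings. In that setting Mzb1 differed by -2.05 between TNBS and mock. Much of the agreement for the members was fixed in advance. Each member has 1 probe, so taking the brightest probe could not change its values. The filters could not change the Pigr differences or the shares of the gap closed. The arrays already carried nearly the same intensities, so quantile normalization and equal medians could change little. Among the other genes and lists, 708 of 714 values stayed within 1.5-fold. With the filter at the 75th percentile, 5 members were measured, without Pou2af1. Without a filter all 7 were. With 1 array a group, no array could be left out. No paired analysis was possible because each group has 1 array. Tnfrsf17 and Pou2af1 were dim on all 4 arrays, which limits what their values can show.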
